A study of Rattus norvegicus with 12 samples.

Results

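Gene expression in rat liver after oral antibiotics was described across all genes. The livers were 3 labelled antibiotics, set against 3 labelled wild type, which received saline. These are 6 of the 12 libraries of the series; the other 6 are jejunum. Both groups were Wistar Han rats kept under specific-pathogen-free conditions, and neither carried a genetic change, since wild type here names the saline group. The antibiotics group was gavaged for 2 weeks with a solution of 4 antibiotics, ampicillin, metronidazole and neomycin sulfate at 20 g/L each and vancomycin at 10 g/L, which also held 0.2 g/L of amphotericin B, an antifungal. The saline group received the same volume, 5 mL/kg. Age and sex are not given in the labels. The labels do not say whether the 3 libraries of a group came from separate rats, so p-values measure only the spread between these libraries, which may be technical. The genome build of the coordinates given for genes is not given in the sources used here. Poly(A) RNA was sequenced in pairs of reads, and gene totals stand below as the authors' normalized counts, that is, reads divided by 1 size factor per library. Of 18703 genes listed for liver, 16540 had a mean normalized count of at least 1 over the 6 libraries and were tested. Albumin, the defining hepatocyte product, was at a mean of 17556 FPKM in the antibiotics livers and 27214 FPKM in the saline livers, and the macrophage marker Cd68 at 14.2 FPKM in the antibiotics livers and 32.9 FPKM in the saline livers.

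The liver makes most plasma proteins, which hepatocytes translate at the rough endoplasmic reticulum (ER), fold with ER chaperones, and export through COPII vesicles and the Golgi. Under inflammatory cytokines, interleukin-6 and interleukin-1 in particular, hepatocytes shift this output towards acute phase proteins through the transcription factor STAT3. A heavy folding load in the ER is read by the sensors ATF6, IRE1 and PERK, and active ATF6 binds ER stress elements in chaperone promoters together with the CCAAT-box factor NF-Y. The portal vein brings gut products, including those of the microbiota, to hepatocytes and to resident macrophages, the Kupffer cells. The title of the series poses the question of how loss of the microbiota changes host genes that process drugs.

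The libraries differed in 3 ways that run alongside the groups. Recovered reads numbered 17903583, 18146538 and 19318616 in the antibiotics libraries and 15017775, 15083018 and 16182483 in the saline libraries. Mitochondrially encoded genes took 4.48%, 3.93% and 3.60% of reads in the antibiotics libraries, against 25.0%, 6.42% and 16.0% in the saline libraries, so saline libraries 1 and 3 stood apart. Each library's deviation from the gene mean also ran with gene length: its slope per doubling of length was 0.07, 0.08 and 0.24 on the log2 scale in the antibiotics libraries, against −0.17, −0.05 and −0.18 in the saline libraries. For all 3 measures the groups did not overlap, and the two-sided exact permutation test gave p = 0.1, the smallest value that 3 against 3 allows. Saline library 2 lay nearest the antibiotics libraries in 1737 (81.9%) of the 2121 genes called below.

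Genes were tested with limma on log2(normalized count + 1), and a gene is called at a Benjamini-Hochberg adjusted p under 0.05. The groups differed in 2121 of 16540 genes (12.8%). In the antibiotics livers 1312 (7.93%) were higher, which is called a rise below, and 809 (4.89%) were lower, called a fall. Calls followed gene length. The median length was 3093.5 bases among genes that rose and 1429 among those that fell, against 2152.5 over all genes tested. Among 10 bins of equal gene number, 2.18% of genes rose and 7.68% fell in the shortest bin (42 to 651 bases), whereas 15.1% rose and 1.45% fell in the longest (5042 to 29464 bases). The test was therefore repeated after a per-library trend on gene length was subtracted, which is called the length correction below. Then 1607 genes (9.72%) were called, 1100 (6.65%) higher and 507 (3.07%) lower, and the share called higher lay between 4.96% and 8.04% in every bin. The share called lower was 1.51% in the shortest bin and 4.29% in the longest, the reverse of the order before. In both fits and with the same sign, 943 genes (5.7% of those tested) were higher and 391 (2.36%) were lower. Together they make up 8.07% of genes tested, and they were 71.9% of the genes that rose and 48.3% of those that fell. Their median lengths were 2555 and 2120 bases. The median log2 fold change over all genes was −0.01, and 0.03 after the correction, and these values are the background for lists of genes near the median length. With library totals in place of the authors' size factors, 1115 genes rose and 414 fell, and that median was 0.14. With the trend removed, the median of the shortest bin went from −0.41 to 0.34, and that of the next bin (651 to 1124 bases) from −0.35 to 0.10. Lists of short genes have these medians as their background, and small differences among very short genes depend on the correction. It removes any true difference that runs with length along with the rest.

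The number of calls also depended on single libraries. It was 464, 484 and 377 without antibiotics library 1, 2 and 3, and 906, 4406 and 71 without saline library 1, 2 and 3. Each of those fits has 1 library fewer. Without saline library 3, all 2121 genes kept their sign and an unadjusted limma p under 0.05, and the median ratio of their fold changes to those with all libraries was 0.955. That is not an independent test, because the 2121 genes were selected with the same libraries. The genes called in all 6 of these fits numbered 66, of which 48 were higher, and 65 of them also passed the length correction.

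**Figure D1:**
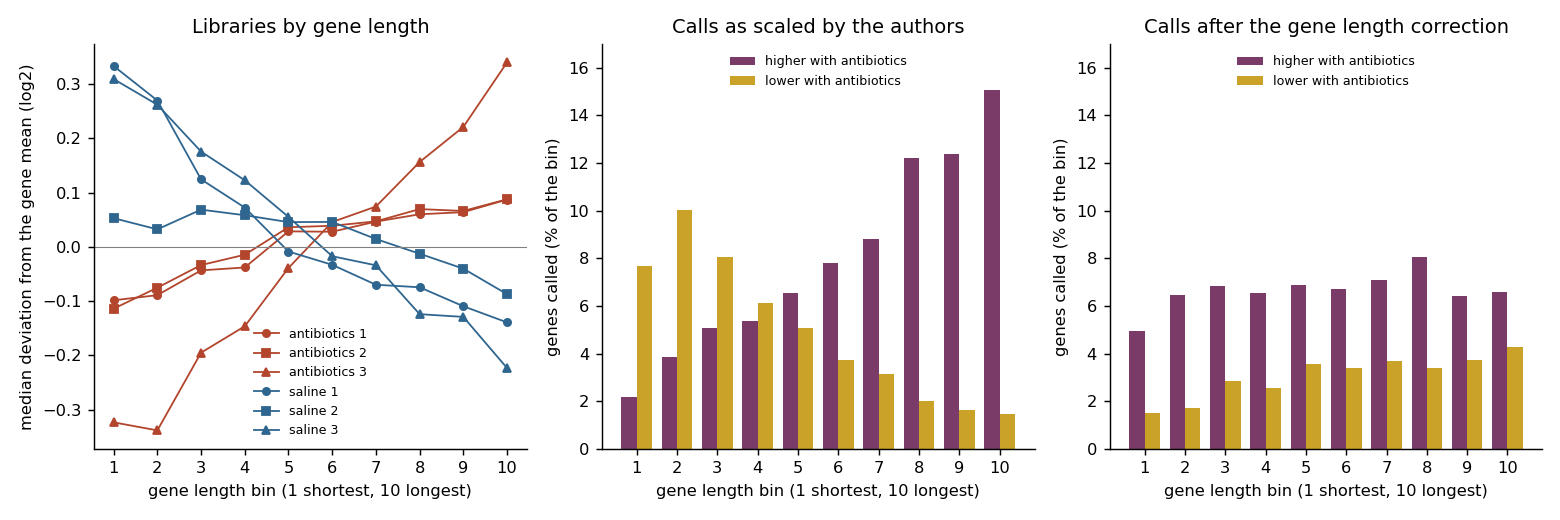
Left, median deviation from the gene mean (log2) of each of the 6 libraries in 10 bins of equal gene number by gene length; middle and right, percent of genes of each bin called higher or lower with antibiotics (limma, adjusted p under 0.05) before and after the length correction. The antibiotics libraries run upward with length and the saline libraries downward, saline library 2 least, and the share called higher climbs to 15.1% in the longest bin before the correction and stays between 4.96% and 8.04% after it.

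Genes of the acute phase response rose. Of 22 genes of acute phase proteins and interleukin-6 signalling, 10 (45.5%, against 7.93% of all genes) rose and 0 fell, and 9 of the 10 also passed after the length correction. The list had a median log2 fold change of 1.28, and 1.21 after the correction. The list's libraries deviated from their gene means by 0.87, 0.67 and 0.48 in the antibiotics livers, against −0.82, −0.14 and −0.78 in the saline livers, so saline library 2 lay between the other saline livers and the antibiotics livers.

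At the receptor end, Il1r1, which encodes the signalling receptor of interleukin-1 (ENSRNOG00000014504, chromosome 9, 46962288 to 47036670), had normalized counts of 5307, 3814 and 3597 in the antibiotics livers, against 940.1, 1421 and 795 in the saline livers (log2 fold change 2.03, SE 0.26, limma adjusted p = 0.00522). Each antibiotics liver exceeded every saline liver. Stat3, the transcription factor downstream of interleukin-6, had normalized counts of 5244, 3967 and 3621 in the antibiotics livers, against 1118, 1711 and 1373 in the saline livers (log2 fold change 1.61, SE 0.23, limma adjusted p = 0.00697). Its feedback inhibitor Socs3 was at 833, 685 and 680.4 in the antibiotics livers and at 129, 469.9 and 239.7 in the saline livers. It rose (log2 fold change 1.58, SE 0.42, limma adjusted p = 0.0475) but missed the threshold after the correction (adjusted p = 0.0521). Il6st, the shared signalling subunit of interleukin-6 receptors, was at 1752, 1458 and 1837 in the antibiotics livers and 62.4, 658 and 217 in the saline livers. It was chosen after its values were seen, and although the groups did not overlap it did not pass (limma adjusted p = 0.0649).

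Among secreted acute phase proteins, Lbp, which binds lipopolysaccharide and passes it to CD14, had normalized counts of 25955, 19266 and 19909.9 in the antibiotics livers, against 6204, 9402 and 5853 in the saline livers (log2 fold change 1.62, SE 0.26, limma adjusted p = 0.00872). The lowest antibiotics liver was above the highest saline liver. Steap4, a metalloreductase of the acute phase (ENSRNOG00000008602, chromosome 4, 23090029 to 23135354), had normalized counts of 4499, 3174 and 3255 in the antibiotics livers, against 988, 664 and 913 in the saline livers (log2 fold change 2.09, SE 0.23, limma adjusted p = 0.00358). Here saline library 2 was the lowest of the 6. All 3 fibrinogen chains, which form the clot, rose: Fgg was at 310835, 286247 and 213205 in the antibiotics livers, against 96744, 130312 and 94769.8 in the saline livers (log2 fold change 1.33, SE 0.28, limma adjusted p = 0.019). Fga and Fgb had log2 fold changes of 1.30 (SE 0.28) and 1.01 (SE 0.27), with limma adjusted p = 0.0213 and 0.0377. The 3 genes lie in a cluster on chromosome 2, and their groups did not overlap. The copper carrier ceruloplasmin, Cp, was at 90526, 76559 and 75763 in the antibiotics livers and 24656, 40923 and 37382 in the saline livers (log2 fold change 1.27, SE 0.27, limma adjusted p = 0.0197). The pentraxin gene Crp was at 190043, 185638 and 161334 in the antibiotics livers, against 46785, 116878 and 57728 in the saline livers (log2 fold change 1.39, SE 0.35, limma adjusted p = 0.0309). For Cp and Crp the groups did not overlap.

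Other acute phase genes did not pass. The 3 genes of the list that were below 0 were Cd14, Apcs and Hamp, with log2 fold changes of −1.01, −0.55 and −0.40. Haptoglobin, Hp, which binds free haemoglobin, was at 901895, 714384 and 636939 in the antibiotics livers and 492122, 633041 and 813847 in the saline livers, with overlapping groups (log2 fold change 0.23, limma adjusted p = 0.647). A pair of strongly inducible genes, chosen after their values were seen, varied widely within the groups. Lcn2, an iron-siderophore trap, was at 744, 924 and 37373 in the antibiotics livers and 2.55, 3363 and 14.8 in the saline livers (limma adjusted p = 0.336). A2m, the protease inhibitor that is a major acute phase protein of rats, was at 98.6, 106 and 1320.4 in the antibiotics livers and 0, 49 and 3.42 in the saline livers (adjusted p = 0.112). For both genes antibiotics library 3 was highest and saline library 2 was the highest of its group. The groups overlapped for Lcn2 and not for A2m. The acid glycoprotein gene Orm1, at 305900.1, 252151 and 139169 in the antibiotics livers and 106095, 111365 and 105869 in the saline livers, passed only after the length correction (adjusted p = 0.0607 before and 0.0161 after). The number of acute phase genes called higher was 4, 4 and 5 without antibiotics library 1, 2 and 3, and 8, 13 and 2 without saline library 1, 2 and 3; the 2 that remained without saline library 3 were Il1r1 and Steap4.

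Promoters are shown because members of this list moved together. RefSeq promoter sequences (build GRCr8, the 250 bases before the gene start) were matched for 10755 of the 16540 genes tested and 19 of the 22 acute phase genes. A STAT element was searched as TTCNNNGAA and an interleukin-6 response element as CTGGGAA, on both strands; the motifs can overlap, as TTCNNNGAA and the reverse complement of CTGGGAA share letters. The STAT element was found in 5 of 19 acute phase promoters (26.3%), against 652 of 10755 (6.06%) of all promoters. The interleukin-6 element was found in 7 of 19 (36.8%), against 1008 of 10755 (9.37%). Of the 9 promoters with either motif, 4 belong to genes called in both fits, as do 4 of the 10 with neither. A match describes letters in the window and not a bound site. Both motifs were chosen as ones known for this response, so their shares do not test the expression result. The promoters of the 4 called genes with a match follow, with the matched letters in capitals and the unspecified positions left in lower case.
Fga: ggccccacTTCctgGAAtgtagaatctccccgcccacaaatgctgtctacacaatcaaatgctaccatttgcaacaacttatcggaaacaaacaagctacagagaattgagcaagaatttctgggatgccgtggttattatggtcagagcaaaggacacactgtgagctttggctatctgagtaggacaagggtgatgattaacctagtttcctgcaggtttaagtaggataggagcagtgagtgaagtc
Fgb: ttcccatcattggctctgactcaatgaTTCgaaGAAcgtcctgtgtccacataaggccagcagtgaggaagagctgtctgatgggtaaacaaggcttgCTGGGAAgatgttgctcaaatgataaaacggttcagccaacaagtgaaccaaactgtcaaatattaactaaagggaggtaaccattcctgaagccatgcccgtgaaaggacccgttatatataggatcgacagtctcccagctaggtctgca
Fgg: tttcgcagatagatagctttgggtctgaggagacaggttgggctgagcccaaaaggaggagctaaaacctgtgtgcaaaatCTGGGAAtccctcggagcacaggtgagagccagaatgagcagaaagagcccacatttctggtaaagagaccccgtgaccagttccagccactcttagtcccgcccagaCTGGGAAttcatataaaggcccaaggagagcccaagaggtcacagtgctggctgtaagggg
Steap4: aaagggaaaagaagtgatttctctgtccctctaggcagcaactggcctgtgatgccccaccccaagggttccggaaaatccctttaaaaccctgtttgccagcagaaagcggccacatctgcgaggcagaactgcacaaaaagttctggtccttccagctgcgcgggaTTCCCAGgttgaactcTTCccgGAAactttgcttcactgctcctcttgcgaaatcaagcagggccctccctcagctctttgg

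In GRCr8 these windows are chr2:170671919-170672168 on the plus strand for Fga, chr2:170700876-170701125 on the minus strand for Fgb, chr2:170652833-170653082 on the plus strand for Fgg and chr4:27054770-27055019 on the minus strand for Steap4. Fgg holds CTGGGAA 2 times, and Fgb and Steap4 hold it beside a STAT element, Steap4 on the opposite strand (read TTCCCAG). Fga holds a STAT element alone.

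Of all lists tested, ER chaperones and folding enzymes had the largest share of genes that rose. Of 30 tested, 17 (56.7%, against 7.93% of all genes) rose and 0 fell, and 14 (46.7%, against 5.7%) passed both fits. The median log2 fold change was 0.80, and 0.90 after the length correction. In 21 of the 30, all antibiotics livers were above all saline livers, where 19.7% of all genes tested were apart in that direction.

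Hspa5, which encodes the master chaperone BiP (ENSRNOG00000018294, chromosome 3, 13838304 to 13842762), had normalized counts of 17679, 16015 and 11753 in the antibiotics livers, against 4111, 8505 and 5907 in the saline livers (log2 fold change 1.34, SE 0.30, limma adjusted p = 0.0219). Hyou1, a nucleotide exchange factor of BiP (ENSRNOG00000010944, chromosome 8, 48699769 to 48711910), had 4392, 3666 and 4120.2 in the antibiotics livers, against 759, 1442 and 873 in the saline livers (log2 fold change 2.04, SE 0.25, limma adjusted p = 0.00522). Creld2, a disulfide isomerase-like protein that is induced by ER stress, was at 1575, 1394 and 1407 in the antibiotics livers, against 469, 408 and 393 in the saline livers (log2 fold change 1.79, SE 0.17, limma adjusted p = 0.00258). The 3 livers of each group lay close together for Creld2, saline library 2 included. The protein disulfide isomerase gene Pdia4 was at 9994, 9835 and 9901 in the antibiotics livers, against 2785, 4672 and 3229.7 in the saline livers (log2 fold change 1.51, SE 0.24, limma adjusted p = 0.00842). Uggt1, the sensor that sends unfolded glycoproteins back to calnexin, was at 3005, 2945 and 3371 in the antibiotics livers, against 678, 1285 and 967 in the saline livers (log2 fold change 1.71, SE 0.24, limma adjusted p = 0.00689). The other 12 genes that rose had log2 fold changes from 0.78 to 1.42, among them Hsp90b1 (1.13), P4hb (1.22), Dnajb11 (1.24) and the oxidases Ero1a (1.42) and Ero1b (1.41). Of these, Dnajc10, Canx and Ganab missed the threshold after the correction (limma adjusted p = 0.0601, 0.0809 and 0.0618). Calr, Manf and Selenof passed only after it (adjusted p = 0.0384, 0.0134 and 0.0374). Chaperone genes called higher numbered 5, 5 and 8 without antibiotics library 1, 2 and 3, and 10, 18 and 2 without saline library 1, 2 and 3, the last being Creld2 and Hyou1.

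An ER stress element, searched as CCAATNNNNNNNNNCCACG on both strands, was found in 7 of the 26 chaperone promoters with a sequence (26.9%), against 15 of 10755 promoters of all genes tested (0.139%). It was found in 0 of the 20 promoters of ER-associated degradation, 0 of 33 for ER translocation, 0 of 27 for COPII and 0 of 40 for COPI and Golgi genes. Of the 7 genes with a match, 5 passed both fits (Creld2, Dnajc3, Ero1b, Hsp90b1 and Hspa5), and Calr and Canx did not. Of the 19 without a match, 7 passed both. The element was chosen as one known from chaperone promoters, so its share in this list does not test the expression result. The 5 promoters are given with the matched letters in capitals and the spacer in lower case.
Hspa5: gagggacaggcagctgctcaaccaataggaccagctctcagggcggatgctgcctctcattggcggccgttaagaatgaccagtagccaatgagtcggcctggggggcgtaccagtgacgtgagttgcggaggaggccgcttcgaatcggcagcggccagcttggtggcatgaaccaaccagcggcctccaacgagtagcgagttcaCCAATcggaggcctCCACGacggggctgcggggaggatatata
Hsp90b1: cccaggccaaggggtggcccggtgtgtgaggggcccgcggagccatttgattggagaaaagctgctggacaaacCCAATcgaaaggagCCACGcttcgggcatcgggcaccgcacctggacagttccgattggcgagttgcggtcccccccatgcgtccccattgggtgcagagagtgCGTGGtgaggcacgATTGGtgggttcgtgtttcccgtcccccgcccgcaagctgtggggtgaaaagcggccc
Creld2: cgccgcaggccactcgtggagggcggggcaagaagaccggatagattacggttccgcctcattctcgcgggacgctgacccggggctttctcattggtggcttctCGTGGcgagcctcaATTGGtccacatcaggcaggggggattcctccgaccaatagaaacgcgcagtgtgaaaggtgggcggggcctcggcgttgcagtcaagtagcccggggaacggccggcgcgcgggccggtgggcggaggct
Dnajc3: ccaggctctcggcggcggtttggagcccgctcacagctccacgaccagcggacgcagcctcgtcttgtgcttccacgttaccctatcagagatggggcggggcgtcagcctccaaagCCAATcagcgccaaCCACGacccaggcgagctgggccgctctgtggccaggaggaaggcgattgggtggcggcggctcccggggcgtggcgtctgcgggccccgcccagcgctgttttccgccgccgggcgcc
Ero1b: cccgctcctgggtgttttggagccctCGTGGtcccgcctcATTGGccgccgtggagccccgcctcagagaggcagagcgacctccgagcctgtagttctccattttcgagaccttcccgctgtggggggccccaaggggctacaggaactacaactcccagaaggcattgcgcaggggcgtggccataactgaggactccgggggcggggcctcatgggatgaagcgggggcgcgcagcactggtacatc

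In GRCr8 the windows are chr3:38452766-38453015 on the plus strand for Hspa5, chr7:23012294-23012543 on the minus strand for Hsp90b1, chr7:121789134-121789383 on the plus strand for Creld2, chr15:102432417-102432666 on the plus strand for Dnajc3 and chr17:92941432-92941681 on the plus strand for Ero1b. Hsp90b1 holds 2 elements, 1 on each strand, and in Hspa5 the element begins 43 bases before the start. Creld2 and Ero1b hold it on the opposite strand, read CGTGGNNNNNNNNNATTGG.

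In the lists of the steps before and after folding, between 13.2% and 29.6% of genes rose, against 7.93% of all genes. For ER-associated degradation, which returns misfolded proteins to the cytosol, 8 of 27 genes (29.6%) rose and 0 fell, with 5 in both fits and a median of 0.27. Edem1, a mannosidase that marks glycoproteins for disposal (ENSRNOG00000055365, chromosome 4, 140886545 to 140915779), was at 3954, 3295 and 2941 in the antibiotics livers, against 483, 843 and 636 in the saline livers (log2 fold change 2.40, SE 0.24, limma adjusted p = 0.00258). Its relative Edem3 was at 383, 335 and 501 in the antibiotics livers, against 10.2, 97 and 20.5 in the saline livers (log2 fold change 3.81, SE 0.75, limma adjusted p = 0.0261). Saline library 2 held more Edem3 than the other saline livers and less than any antibiotics liver. Genes of this list called higher numbered 1, 1 and 1 without antibiotics library 1, 2 and 3, and 3, 10 and 1 without saline library 1, 2 and 3, Edem1 in the last.

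Of 38 genes of ER translocation and N-glycan attachment, 5 rose (13.2%), 4 of them in both fits, and 8 after the correction, with medians of 0.49 and 0.52. Stt3b, a catalytic subunit of the oligosaccharyltransferase, was at 2060, 1671 and 1736 in the antibiotics livers, against 423, 998 and 593 in the saline livers (log2 fold change 1.52, SE 0.29, limma adjusted p = 0.014). The translocon gene Sec61a1 rose (log2 fold change 0.88, SE 0.22, limma adjusted p = 0.0317). Its short partner Sec61b (562 bases), at 1748, 1601 and 915 in the antibiotics livers and 912, 1273 and 1253 in the saline livers, passed only after the correction (log2 fold change 0.27 before and 0.89 after, adjusted p = 0.518 and 0.0485). For COPII and ER exit, 5 of 31 rose (16.1%), all 5 in both fits, and 9 after the correction (medians 0.42 and 0.35). Lman1, a lectin that carries clotting factors out of the ER, was at 1159.9, 1068 and 1081 in the antibiotics livers, against 122, 398 and 137 in the saline livers (log2 fold change 2.54, SE 0.42, limma adjusted p = 0.0134). The coat genes Sec24a (2.51), Sec24d (1.13) and Sec23a (1.79) and the cargo receptor Tmed3 (1.48) were the others. For COPI and Golgi genes, 9 of 43 rose (20.9%), 6 in both fits (medians 0.52 and 0.38), led by the galactosyltransferase B4galt1 at 725, 641 and 713 in the antibiotics livers, against 218, 333 and 212 in the saline livers (log2 fold change 1.47, SE 0.21, limma adjusted p = 0.00697). The sialyltransferase St6gal1, which caps plasma glycoproteins, was at 22141, 19784 and 23122 in the antibiotics livers, against 7727, 12417 and 9503 in the saline livers (log2 fold change 1.16, SE 0.24, limma adjusted p = 0.0188). Copa, a coat subunit, just missed the threshold at 1748, 1733 and 1728 in the antibiotics livers and 1294, 1136 and 786 in the saline livers (limma adjusted p = 0.0531). ER translocation genes called higher numbered 0, 1 and 0 without antibiotics library 1, 2 and 3. They numbered 3, 14 and 0 without saline library 1, 2 and 3. COPII genes called higher numbered 0, 1 and 1 without antibiotics library 1, 2 and 3. They numbered 3, 8 and 0 without saline library 1, 2 and 3. COPI and Golgi genes called higher numbered 1, 2 and 1 without antibiotics library 1, 2 and 3. They numbered 7, 19 and 0 without saline library 1, 2 and 3. Without saline library 3 none of the 3 lists had a call by limma at the adjusted threshold. The genes called with all libraries kept an unadjusted p under 0.05, but they had been selected with the same libraries.

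Of 26 genes of the sensors and the ATF4 branch, 4 rose (15.4%, against 7.93% of all genes) and 1 fell (3.85%, against 4.89%). Atf6, the sensor that acts on ER stress elements, was at 603, 555 and 885 in the antibiotics livers, against 67.5, 249 and 115 in the saline livers (log2 fold change 2.41, SE 0.45, limma adjusted p = 0.0189). Asns, the asparagine synthetase gene that ATF4 activates, was at 109.5, 188 and 248 in the antibiotics livers, against 42, 53.1 and 58.2 in the saline livers (log2 fold change 1.74, SE 0.32, limma adjusted p = 0.0129), while the ATF4 target Sesn2 fell (log2 fold change −0.91, SE 0.22, limma adjusted p = 0.0283). Atf4 itself was at 2680.3, 2657 and 1703 in the antibiotics livers and 2704, 1861 and 2889.6 in the saline livers, with overlapping groups (adjusted p = 0.845). Xbp1, the target of IRE1 splicing, was at 2767, 1767 and 1726 in the antibiotics livers and 536, 3048 and 1062 in the saline livers (adjusted p = 0.435), and gene totals do not show its splicing. Without saline library 3 none of the 26 passed, with limma adjusted p = 0.0863 for Atf6 and 0.0693 for Asns.

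**Figure D2:**
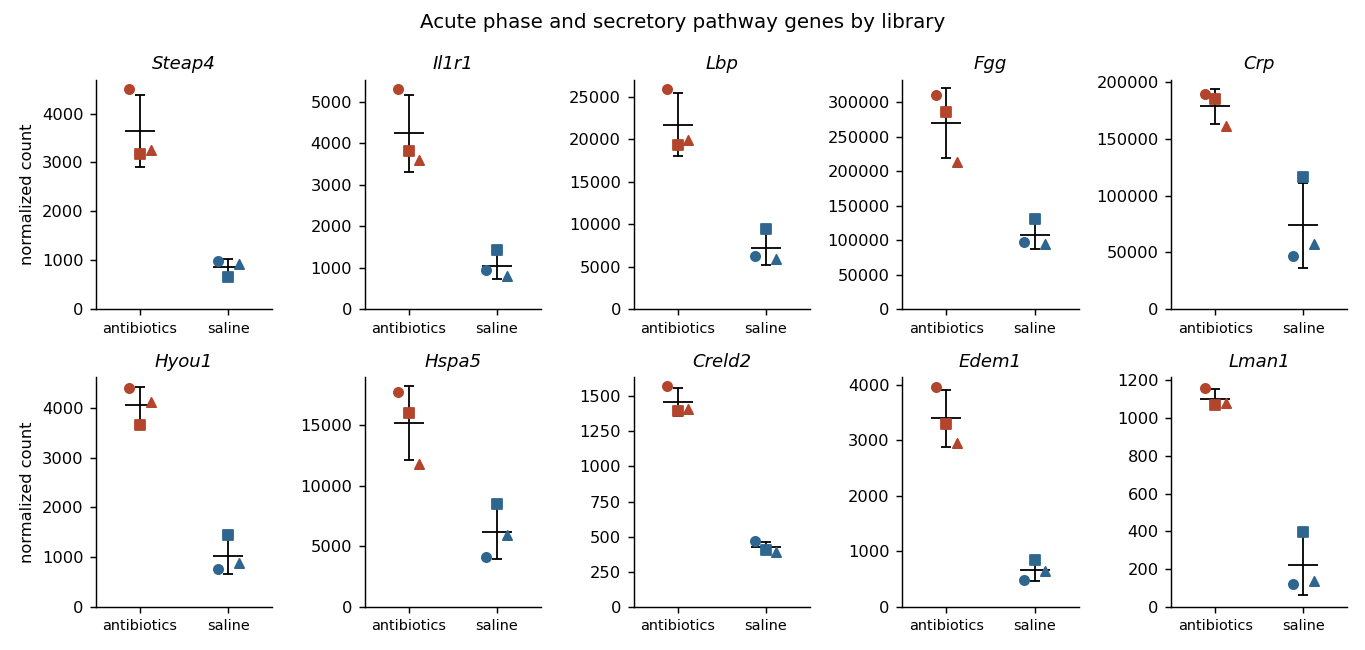
Normalized counts (linear axes from 0) of 5 acute phase genes and 5 secretory pathway genes in the 3 antibiotics and 3 saline livers; circles, squares and triangles are libraries 1, 2 and 3, bars the mean and SD of n = 3. No gene has overlapping groups, and the square of saline library 2 is the highest saline value in Il1r1, Lbp, Fgg, Crp, Hyou1, Hspa5, Edem1 and Lman1 but not in Steap4 or Creld2.

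Plasma proteins split. Of 48, 7 rose (14.6%, against 7.93% of all genes) and 9 fell (18.8%, against 4.89%). The median was 0.14, and 5 and 5 passed both fits. Apoa2, an apolipoprotein of high-density lipoprotein, was at 7214, 8389 and 9049.8 in the antibiotics livers, against 49486, 19878 and 48837 in the saline livers (log2 fold change −2.15, SE 0.35, limma adjusted p = 0.00941), and Apoc3, which slows the clearance of triglyceride-rich particles, was at 28109, 25914 and 18778 in the antibiotics livers, against 94401, 46806 and 63655 in the saline livers (log2 fold change −1.45, SE 0.31, limma adjusted p = 0.0192). Pon1, the paraoxonase carried on high-density lipoprotein, was at 8908, 9605 and 9264 in the antibiotics livers, against 19663, 18011 and 23314 in the saline livers (log2 fold change −1.13, SE 0.21, limma adjusted p = 0.0139). Apoe fell as well (log2 fold change −1.14, SE 0.29, limma adjusted p = 0.0309), and so did C4a (log2 fold change −0.99, SE 0.20, limma adjusted p = 0.0155), whose near-identical copy makes its counts uncertain. These 5 were the falls that passed both fits. Transthyretin, Ttr, a thyroid hormone carrier that declines in the acute phase, was at 54166, 45213 and 38503 in the antibiotics livers, against 115863, 84578 and 121351 in the saline livers (log2 fold change −1.22, SE 0.27, limma adjusted p = 0.0211). Its gene is 701 bases long, and after the correction it missed the threshold (log2 fold change −0.66, adjusted p = 0.065). The clotting factor gene F5 rose, at 5200.3, 3447 and 4648 in the antibiotics livers, against 1667, 2407 and 1705 in the saline livers (log2 fold change 1.201, SE 0.24, limma adjusted p = 0.0154). Apob, the 14969-base gene of the core apolipoprotein, rose (log2 fold change 0.97, SE 0.27, limma adjusted p = 0.0438) but not after the correction (adjusted p = 0.259). Albumin, Alb, was at 914968, 419584 and 402547 in the antibiotics livers and 1051408, 779135 and 859766 in the saline livers (limma adjusted p = 0.206), and Apoa1 at 66711, 34116 and 19795 in the antibiotics livers and 21608, 22102 and 30894 in the saline livers (adjusted p = 0.398). In both genes the groups overlapped. Plasma protein genes called higher numbered 0, 1 and 1 without antibiotics library 1, 2 and 3, and 4, 12 and 0 without saline library 1, 2 and 3. Those called lower numbered 4, 1 and 1 without antibiotics library 1, 2 and 3, and 6, 12 and 0 without saline library 1, 2 and 3.

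Drug-processing enzymes fell more often than they rose. Of 44 cytochrome P450 genes of families 1 to 4, which oxidise drugs, steroids and fatty acids, 10 fell (22.7%, against 4.89% of all genes) and 1 rose, and 7 and 1 passed both fits. The median was −0.57, and −0.54 after the length correction. Cyp2e1, which oxidises ethanol and small solvents in pericentral hepatocytes, was at 10269, 9668 and 8439 in the antibiotics livers, against 29933, 21447 and 32385 in the saline livers (log2 fold change −1.54, SE 0.24, limma adjusted p = 0.00842). The epoxygenase Cyp2j4 was at 233, 167 and 308 in the antibiotics livers, against 782, 446 and 547 in the saline livers (log2 fold change −1.33, SE 0.27, limma adjusted p = 0.0177), and Cyp2f4, an enzyme that activates naphthalene, fell too (log2 fold change −1.02, SE 0.20, limma adjusted p = 0.0156). The fatty acid hydroxylases Cyp4f1 and Cyp4f6 had log2 fold changes of −0.94 and −0.79 (limma adjusted p = 0.0243 and 0.031). Cyp3a23/3a1, an enzyme induced through the pregnane X receptor, was at 4835, 1457 and 4223 in the antibiotics livers, against 45536, 15409 and 19954 in the saline livers (log2 fold change −2.96, SE 0.56, limma adjusted p = 0.0212). The gene of that receptor, Nr1i2, was at 1306, 980.2 and 1407 in the antibiotics livers, against 2541, 1816 and 2755 in the saline livers, and passed both fits (log2 fold change −0.94, SE 0.23, limma adjusted p = 0.029). Cyp1a2, the caffeine-oxidising enzyme, overlapped between groups at 16904, 17867 and 9991 in the antibiotics livers and 21972, 7653 and 16653 in the saline livers (adjusted p = 0.962). The number of P450 genes called lower was 5, 4 and 5 without antibiotics library 1, 2 and 3, and 8, 12 and 0 without saline library 1, 2 and 3. Members of these families share sequence, so counts may be split between relatives.

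Conjugating enzymes showed the same direction. Of 38 glucuronosyl-, sulfo- and glutathione transferases, 9 fell (23.7%, against 4.89% of all genes) and 1 rose, and 34 were below 0. The median was −0.85, and −0.56 after the correction, when 5 fell and 1 rose. The glutathione transferase gene Gsta1 was at 2939, 3442 and 3266 in the antibiotics livers, against 21947, 8915 and 14902 in the saline livers (log2 fold change −2.15, SE 0.31, limma adjusted p = 0.00697). Gstm7 was at 2332, 1757 and 4118 in the antibiotics livers, against 12202, 8408 and 7881 in the saline livers (log2 fold change −1.86, SE 0.32, limma adjusted p = 0.0114). Sult1e1, the oestrogen sulfotransferase, was at 10733, 8115 and 8652 in the antibiotics livers, against 33726, 21787 and 27437 in the saline livers (log2 fold change −1.58, SE 0.25, limma adjusted p = 0.00842). Shorter genes of the list lost their call: Mgst3 (600 bases) had an adjusted p of 0.0106 before and 0.0504 after, and Gstm1 (1116 bases) 0.0355 and 0.104 (limma). The glucuronosyltransferase Ugt2b10 was the one that rose, at 7096, 10488 and 7651 in the antibiotics livers, against 3669, 3284 and 4195 in the saline livers (log2 fold change 1.16, SE 0.23, limma adjusted p = 0.0149). Transferase genes called lower numbered 4, 5 and 5 without antibiotics library 1, 2 and 3, and 6, 19 and 0 without saline library 1, 2 and 3.

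Genes that are typical of male rat liver, which pulsatile growth hormone maintains through STAT5B, fell more often than they rose. Of 12 tested, 5 fell (41.7%, against 4.89% of all genes) and 0 rose, with 4 in both fits and a median of −1.54. Cyp2c11 was at 783, 336 and 1236 in the antibiotics livers, against 12467, 5415 and 6716 in the saline livers (log2 fold change −3.48, SE 0.51, limma adjusted p = 0.0116). The urinary protein gene Mup4 (ENSRNOG00000050499) was at 7.97, 0 and 2.25 in the antibiotics livers, against 671, 155 and 536 in the saline livers (limma adjusted p = 0.00842); with so few reads in the antibiotics livers no fold is given, and another gene of the same symbol did not pass. Mup5 was at 8880.2, 2939 and 5724 in the antibiotics livers, against 90961, 20212 and 43712 in the saline livers (log2 fold change −3.02, SE 0.60, limma adjusted p = 0.0243). The female-typical P450 Cyp2c12 went the other way, at 1155, 3835 and 2573 in the antibiotics livers, against 508, 521 and 296 in the saline livers (log2 fold change 2.39, SE 0.44, limma adjusted p = 0.0188). It was the 1 gene of 10 female-typical genes to rise, and 1 of them, the steroid dehydrogenase Hsd17b2, fell (log2 fold change −1.83, SE 0.33, limma adjusted p = 0.0129) but missed the threshold after the correction (adjusted p = 0.0521). Stat5b rose, at 994, 668 and 533 in the antibiotics livers, against 135, 251 and 184 in the saline livers (log2 fold change 1.94, SE 0.28, limma adjusted p = 0.0076). The growth hormone receptor gene Ghr was at 5014, 4883 and 6357 in the antibiotics livers and 5151, 6254 and 6775 in the saline livers (adjusted p = 0.643), and Igf1 at 4877, 5181 and 5028 in the antibiotics livers and 6604, 5785 and 7116 in the saline livers (adjusted p = 0.235). The groups overlapped for Ghr and not for Igf1. Mup and Cyp2c genes have close copies in the genome, and reads may be split among these. Male-typical genes called lower numbered 6, 3 and 3 without antibiotics library 1, 2 and 3, and 4, 5 and 1 without saline library 1, 2 and 3; the last was LOC259244, a urinary protein-like gene. Of 18 genes of growth hormone signalling 2 rose (11.1%, against 7.93% of all genes) and 0 fell. Of 38 liver transcription factors and nuclear receptors 7 rose (18.4%) and 2 fell (5.26%, near the 4.89% of all genes). Hnf4a was at 8882, 6694 and 7216 in the antibiotics livers and 5028, 6468 and 5780.3 in the saline livers (adjusted p = 0.238). Foxa2, a factor of hepatocyte identity, fell (log2 fold change −1.01, SE 0.28, limma adjusted p = 0.0438), and Ppara, the fatty acid receptor gene, rose (log2 fold change 1.96, SE 0.42, limma adjusted p = 0.0225). Neither passed without saline library 3 (adjusted p = 0.167 and 0.0836).

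**Figure D3:**
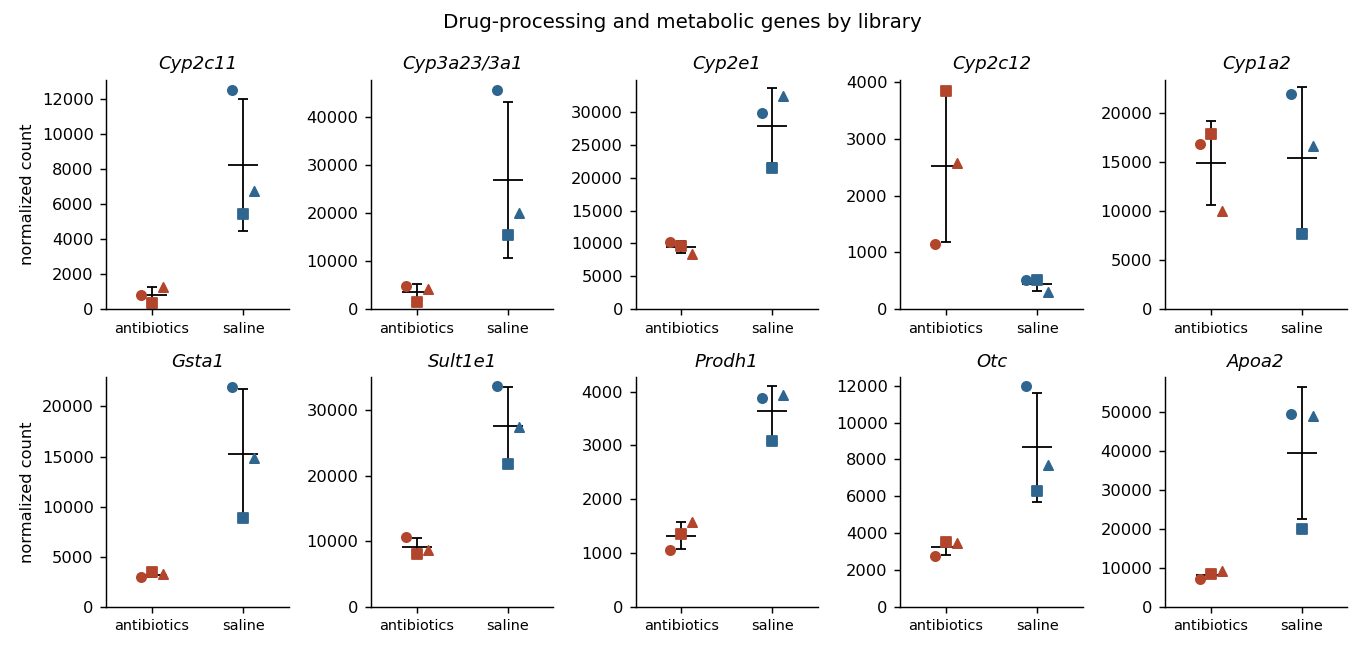
Normalized counts (linear axes from 0) of 7 drug-processing genes and 3 metabolic or transport genes in the 3 antibiotics and 3 saline livers; circles, squares and triangles are libraries 1, 2 and 3, bars the mean and SD of n = 3. The antibiotics livers are lower in every panel except Cyp2c12, where they are higher, and Cyp1a2, where the groups overlap.

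Enzymes of amino acid breakdown and the urea cycle fell more often than they rose. Of 38, 11 fell (28.9%, against 4.89% of all genes) and 0 rose, 8 in both fits. The median was −0.52 before and −0.53 after the correction. Proline dehydrogenase, Prodh1, was at 1058, 1345 and 1571 in the antibiotics livers, against 3883, 3085 and 3935 in the saline livers (log2 fold change −1.47, SE 0.22, limma adjusted p = 0.00737). Otc, the urea cycle enzyme that makes citrulline, was at 2737, 3534 and 3453 in the antibiotics livers, against 11992, 6283 and 7712 in the saline livers (log2 fold change −1.37, SE 0.27, limma adjusted p = 0.0146). Fah, of tyrosine breakdown, fell by 1.01 and Bhmt, which remethylates homocysteine, by 1.76 on the log2 scale (limma adjusted p = 0.0179 and 0.0226). Arg1, which releases urea, fell (log2 fold change −0.96, SE 0.24, limma adjusted p = 0.0324) but missed the threshold after the correction (adjusted p = 0.064). Cps1, which opens the urea cycle, was at 25727, 28707 and 37043 in the antibiotics livers and 24735, 35412 and 28717 in the saline livers, with overlapping groups (adjusted p = 0.929). Ass1, the next enzyme after Otc, fell (log2 fold change −1.20, SE 0.30, limma adjusted p = 0.0301). Of this list, genes called lower numbered 2, 3 and 2 without antibiotics library 1, 2 and 3, and 12, 13 and 0 without saline library 1, 2 and 3.

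In the carbohydrate and lipid lists few genes passed. Over all genes tested, 7.93% rose and 4.89% fell. Of 29 genes of gluconeogenesis and glycogen, 1 rose and 2 fell (median −0.11), with the gluconeogenic enzyme Pck1 at 26589, 27720.4 and 39716 in the antibiotics livers and 26286, 39859.7 and 35080.2 in the saline livers (adjusted p = 0.812). Lactate dehydrogenase, Ldha, rose (log2 fold change 1.19, SE 0.33, limma adjusted p = 0.0411), and the glucose transporter Slc2a2 fell (log2 fold change −0.82, SE 0.20, limma adjusted p = 0.0272). In fatty acid and triglyceride synthesis 2 of 24 rose and 0 fell (median 0.49, 0.27 after the correction). Gpam, the enzyme that starts glycerolipid synthesis, was at 1263, 1814 and 2012 in the antibiotics livers, against 231, 386 and 259 in the saline livers (log2 fold change 2.54, SE 0.25, limma adjusted p = 0.00258), and it stayed called in each fit without 1 library. Acaca, acetyl-CoA carboxylase, was at 932, 1116 and 1848 in the antibiotics livers, against 81.5, 365 and 216 in the saline livers (log2 fold change 2.73, SE 0.55, limma adjusted p = 0.0268). In cholesterol synthesis and uptake 5 of 25 rose (20.0%) and 0 fell (median 0.62). Srebf2, Lss and Stard4 passed before the correction alone (adjusted p after it 0.0528 for Lss to 0.0841 for Srebf2). Fatty acid oxidation had 2 of 34 higher and 1 lower (median −0.11), and Cpt1a, the carnitine step of mitochondrial import, was at 3053, 1163 and 1862 in the antibiotics livers, against 541, 901 and 636 in the saline livers (log2 fold change 1.47, SE 0.34, limma adjusted p = 0.029), and missed the threshold after the correction (adjusted p = 0.0527). Of 24 genes of bile acid synthesis and transport, 2 fell (8.33%) and 0 rose (median −0.092). The transporter Slco1a4 was at 620.3, 459.9 and 538 in the antibiotics livers, against 2576, 1051 and 2172 in the saline livers (log2 fold change −1.75, SE 0.32, limma adjusted p = 0.0132), and Cyp7a1, the rate-limiting enzyme, at 2781, 7329 and 7399 in the antibiotics livers and 3648, 1902 and 4482 in the saline livers (adjusted p = 0.294). Apart from Gpam, no gene of these 5 lists passed without saline library 3.

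Mitochondrial and ribosomal lists were lower with the authors' scaling, and most of that was no longer called after the length correction. All 29 mitochondrially encoded genes were below 0, 12 fell (41.4%, against 4.89% of all genes) and 4 passed both fits, with medians of −1.90 and −1.40. Of the 4, Mt-nd4 alone codes for a protein. The others were transfer RNA genes of 64 and 69 bases and a ribosomal RNA gene of 1571 bases. The median length of the list was 204 bases. Mt-nd4, a complex I subunit, was at 6699.7, 3174 and 3682 in the antibiotics livers, against 56519, 12099.7 and 35807 in the saline livers (log2 fold change −2.76, SE 0.57, limma adjusted p = 0.0262). Mt-co1, a subunit of cytochrome oxidase, was at 307803, 235864 and 204499 in the antibiotics livers, against 1709005, 374018 and 994868 in the saline livers (log2 fold change −1.81, SE 0.50, limma adjusted p = 0.0464), and did not pass after the correction (adjusted p = 0.0718). Saline library 1 was highest in both, and saline library 2 was the lowest saline liver. Mitochondrially encoded genes called lower numbered 2, 1 and 1 without antibiotics library 1, 2 and 3, and 2, 24 and 0 without saline library 1, 2 and 3.

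Nuclear genes of complex I fell in 11 of 37 (29.7%, against 4.89% of all genes), 36 were below 0, and the median was −0.78. After the correction 1 fell and the median was −0.30. The median length of these genes was 705 bases, against 2152.5 over all genes. The 1 that passed both fits was Ndufs7, at 831, 987 and 680.4 in the antibiotics livers, against 2292, 1323 and 2063 in the saline livers (log2 fold change −1.16, SE 0.25, limma adjusted p = 0.0197). Ndufs1, a longer gene of 2474 bases, was at 1085, 1259 and 1032 in the antibiotics livers and 836, 1045 and 822 in the saline livers with overlapping groups (adjusted p = 0.263). Complexes II to IV had 2 of 26 lower (7.69%, median −0.59) and after the correction 0 (median −0.084). Cox7c was at 2706, 2419.5 and 1347 in the antibiotics livers and 5272, 2812 and 4887 in the saline livers (limma adjusted p = 0.0668). For ATP synthase, 3 of 17 fell (17.6%, against 4.89% of all genes) and 1 rose (5.88%, against 7.93%), with a median of −0.71. After the correction 1 fell and 1 rose (median −0.13). The riser, Atp5pb, was at 403, 520.3 and 339 in the antibiotics livers, against 47.1, 21.4 and 107 in the saline livers (log2 fold change 3.09, SE 0.52, limma adjusted p = 0.0146), while the 3 called subunits beside it fell. Atp5f1b, the catalytic subunit, was at 14977, 16838 and 13206 in the antibiotics livers and 16796, 18209.8 and 20336 in the saline livers (adjusted p = 0.38). Mean FPKM was 12.8 in the antibiotics livers and 1.78 in the saline livers for Atp5pb, against 531 and 653 for Atp5f1b. Whether the reads of Atp5pb stand for its whole output was not tested. Cytosolic ribosomal proteins had 1 of 93 lower (1.08%, against 4.89% of all genes), with a median of −0.49 that turned to 0.048 after the correction. Their median length was 636 bases, and the shortest bin of all genes (42 to 651 bases) had medians of −0.41 and 0.34. Rps16 passed only after the correction, at 4112, 3343 and 2305 in the antibiotics livers, against 1703, 2264 and 1842 in the saline livers (adjusted p = 0.0787 before and 0.0393 after). The 1 that fell, Rps19l2, is a near-copy of another ribosomal gene, so its counts are uncertain, and it did not pass after the correction (adjusted p = 0.064). Mitochondrial ribosomal proteins had 10 of 75 lower (13.3%, against 4.89% of all genes), and 3 after the correction with 1 higher. Mrps36, at 182, 171 and 118 in the antibiotics livers, against 534, 294 and 382 in the saline livers, fell in both fits (log2 fold change −1.34, SE 0.26, limma adjusted p = 0.0152). Of 24 citric acid cycle genes 0 passed by limma, against 3 by DESeq2 and 1 by edgeR, and 7 had an unadjusted p under 0.05. Without saline library 2 the numbers called lower were 23 for complex I, 11 for complexes II to IV, 9 for ATP synthase, 32 for mitochondrial and 22 for cytosolic ribosomal proteins; with any other 1 library left out they were 0 or 1, except 3 for cytosolic ribosomal proteins without antibiotics library 2. The part of the differences in mitochondrial reads and in gene length in these lists was not tested.

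**Figure D4:**
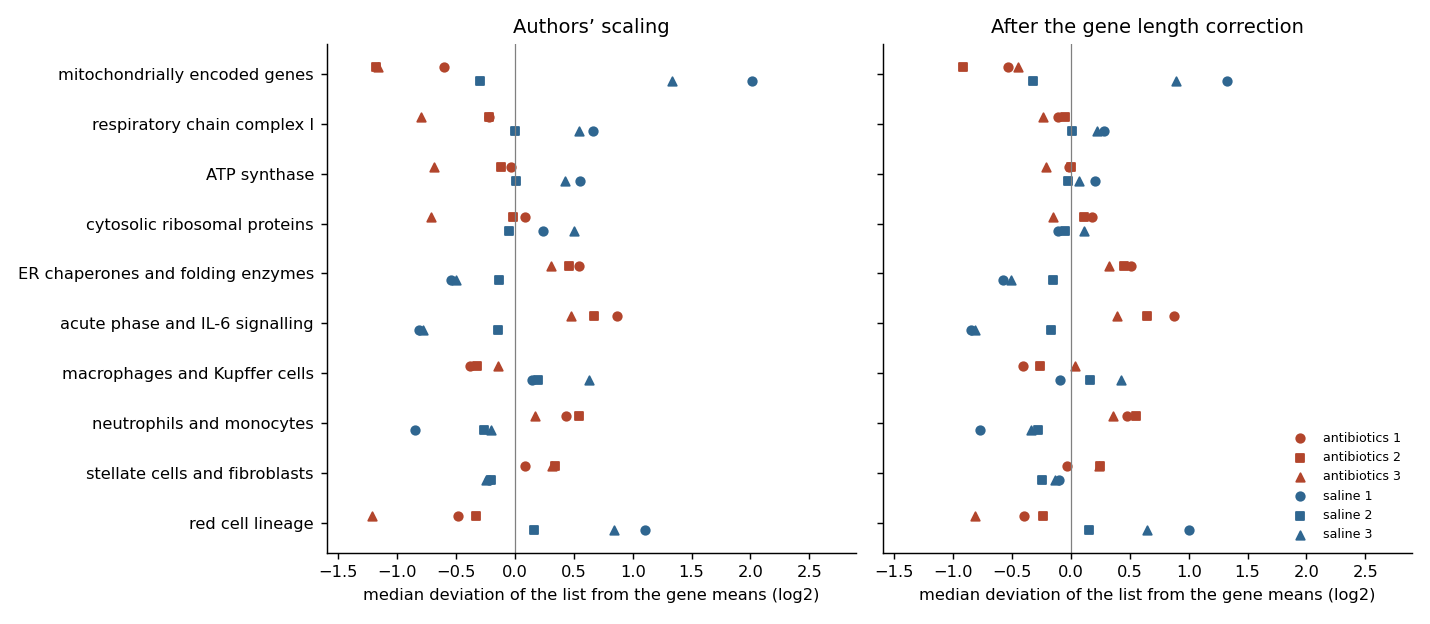
Median deviation of 10 gene lists from their gene means (log2) in each library, before and after the length correction; red marks are antibiotics livers and blue marks saline livers, with circles, squares and triangles for libraries 1, 2 and 3. The groups stay apart after the correction for mitochondrially encoded genes, complex I, ER chaperones, acute phase genes, neutrophil and stellate markers and red cell genes, but overlap for ATP synthase, cytosolic ribosomal proteins and macrophage markers.

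Markers of resident macrophages fell more often than they rose. In such bulk tissue, fewer cells of a type and less RNA per cell cannot be told apart. Of 19 macrophage and Kupffer cell markers, 7 fell (36.8%, against 4.89% of all genes) and 17 were below 0, with a median of −0.56. The summed normalized counts were 14096, 13756 and 15208 in the antibiotics livers, against 19966, 19986 and 26495 in the saline livers. After the correction 2 fell and 1 rose (median −0.36), and the groups' libraries overlapped. In 10 of the 19 all antibiotics livers were below all saline livers, where 18.1% of all genes tested were apart in that direction. Aif1, a calcium-binding protein of macrophages, was at 197, 235 and 171 in the antibiotics livers, against 652, 400.4 and 888 in the saline livers (log2 fold change −1.62, SE 0.28, limma adjusted p = 0.0114). Clec4f, the lectin that defines Kupffer cells, was at 2287, 1937 and 2359 in the antibiotics livers, against 4357, 3018 and 5377 in the saline livers (log2 fold change −0.92, SE 0.24, limma adjusted p = 0.0371). Both passed after the correction too (adjusted p = 0.0142 and 0.0497). Cd68 was at 229, 219 and 396 in the antibiotics livers, against 680.2, 527 and 741 in the saline livers (log2 fold change −1.24, SE 0.25, limma adjusted p = 0.0169), and missed the threshold after the correction (adjusted p = 0.0685). The scavenger receptor Marco overlapped, at 893, 737 and 721 in the antibiotics livers and 735, 1268 and 1622 in the saline livers (adjusted p = 0.196). Macrophage markers called lower numbered 1, 1 and 1 without antibiotics library 1, 2 and 3, and 3, 8 and 0 without saline library 1, 2 and 3.

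Neutrophil and monocyte markers ran the other way. Of 14, 2 rose (14.3%, against 7.93% of all genes), 0 fell and 12 were above 0. The median was 0.69, and 0.80 after the correction, when 3 rose. The calprotectin subunit S100a8 was at 314, 466 and 215 in the antibiotics livers, against 81.5, 74.6 and 106 in the saline livers (log2 fold change 1.86, SE 0.29, limma adjusted p = 0.00852), and its partner S100a9 at 319, 626 and 268 in the antibiotics livers, against 218, 116 and 185 in the saline livers, which passed only after the correction (adjusted p = 0.0573 and 0.0095). The neutrophil collagenase Mmp8 was at 50.8, 86.3 and 63.8 in the antibiotics livers, against 20.4, 13.3 and 22.8 in the saline livers (log2 fold change 1.78, SE 0.36, limma adjusted p = 0.0167). The list's summed counts were 1097, 1542 and 885 in the antibiotics livers, against 507, 430.02 and 582 in the saline livers. These sums and the acute phase list were both higher in every antibiotics liver than in any saline liver, though within the saline livers library 2 had the lowest neutrophil sum and the highest acute phase deviation; the part of these cells in the acute phase result was not tested. Without saline library 3 no member passed. Lymphocyte lists showed 1 fall, the granzyme Gzma (log2 fold change −1.34, SE 0.39, limma adjusted p = 0.0486), among 19 T and NK cell markers (median −0.51). It lost its call after the correction (log2 fold change −0.87, adjusted p = 0.188). Cd3e had 2.99, 1.68 and 3.75 in the antibiotics livers and was at 0 in all saline livers, which is under the floor of 3 reads per library, so no fold is given. By limma 0 of 13 B and plasma cell markers and 0 of 13 genes of MHC class II presentation passed (medians 0.085 and −0.48; 1 and 1 at an unadjusted p under 0.05, 0 and 2 by DESeq2, 0 and 0 by edgeR), with Cd74 at 2690.3, 1599 and 869 in the antibiotics livers and 2041, 1993 and 3120.1 in the saline livers. Of 28 interferon response genes 6 fell (21.4%, against 4.89% of all genes) and 3 rose (10.7%, near the 7.93% of all genes), and 4 and 2 passed both fits. Isg15, a ubiquitin-like modifier, was at 38.8, 62.8 and 70.5 in the antibiotics livers, against 394, 153 and 218 in the saline livers (log2 fold change −2.07, SE 0.37, limma adjusted p = 0.0119). Irf7, the transcription factor that amplifies interferon production, and Usp18, which removes Isg15, fell as well (log2 fold change −1.35 and −1.12). The RNA sensor Ddx58 rose, at 223, 189 and 329 in the antibiotics livers, against 25.5, 108 and 21.7 in the saline livers (log2 fold change 2.58, SE 0.58, limma adjusted p = 0.0308). Interferon response genes called lower numbered 1, 1 and 4 without antibiotics library 1, 2 and 3, and 2, 8 and 0 without saline library 1, 2 and 3.

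Of 19 stellate cell and fibroblast markers, 3 rose (15.8%, against 7.93% of all genes) and 0 fell, and the 3 passed both fits (medians 0.59 and 0.27). Reln, a matrix glycoprotein of stellate cells, was at 506, 546 and 598 in the antibiotics livers, against 145, 194 and 128 in the saline livers (log2 fold change 1.83, SE 0.21, limma adjusted p = 0.00408), and was called in each fit without 1 library. Rgs5, a pericyte marker, was at 214, 176 and 101 in the antibiotics livers, against 38.2, 41.9 and 24 in the saline livers (log2 fold change 2.18, SE 0.35, limma adjusted p = 0.00882), and the collagen Col14a1 rose too (log2 fold change 1.64, SE 0.26, limma adjusted p = 0.00874). Col1a1 and the retinol esterase Lrat overlapped between groups (adjusted p = 0.953 and 0.33). The summed counts, 9852, 11018 and 10233 in the antibiotics livers, against 10417, 8424 and 9033 in the saline livers, overlapped. Of 21 endothelial markers, 2 rose (9.52%, near the 7.93% of all genes) and 0 fell (median 0.30, 0.060 after the correction). The phosphatase Ptprb was at 118, 173 and 279.8 in the antibiotics livers, against 48.4, 60.3 and 51.4 in the saline livers (log2 fold change 1.74, SE 0.32, limma adjusted p = 0.0128), and Oit3, a sinusoidal marker, also rose (log2 fold change 0.77, SE 0.21, limma adjusted p = 0.0438). The sinusoidal receptor genes Stab2 and Lyve1 did not pass (adjusted p = 0.0847 and 0.144). By limma 0 of 15 cholangiocyte and 0 of 9 smooth muscle markers passed (3 and 2 at an unadjusted p under 0.05, 2 and 0 by DESeq2, 0 and 0 by edgeR), with Krt19 at 27.9, 15.9 and 21.8 in the antibiotics livers and 12.7, 20.4 and 11.4 in the saline livers. All 11 red cell genes were below 0 and 4 fell (36.4%, against 4.89% of all genes), 3 in both fits (27.3%, against 2.36%). The medians were −1.46 and −0.93. Hbb-bs was at 72.7, 75.4 and 92.3 in the antibiotics livers, against 906, 272 and 531 in the saline livers (log2 fold change −2.66, SE 0.39, limma adjusted p = 0.00877), and the list's sums were 24001, 21814 and 10907 in the antibiotics livers, against 77042, 35436 and 52758 in the saline livers. Globin genes have near-identical copies, and blood left in the tissue was not measured. Without saline library 3, Reln was the 1 gene of these lists that passed.

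**Figure D5:**
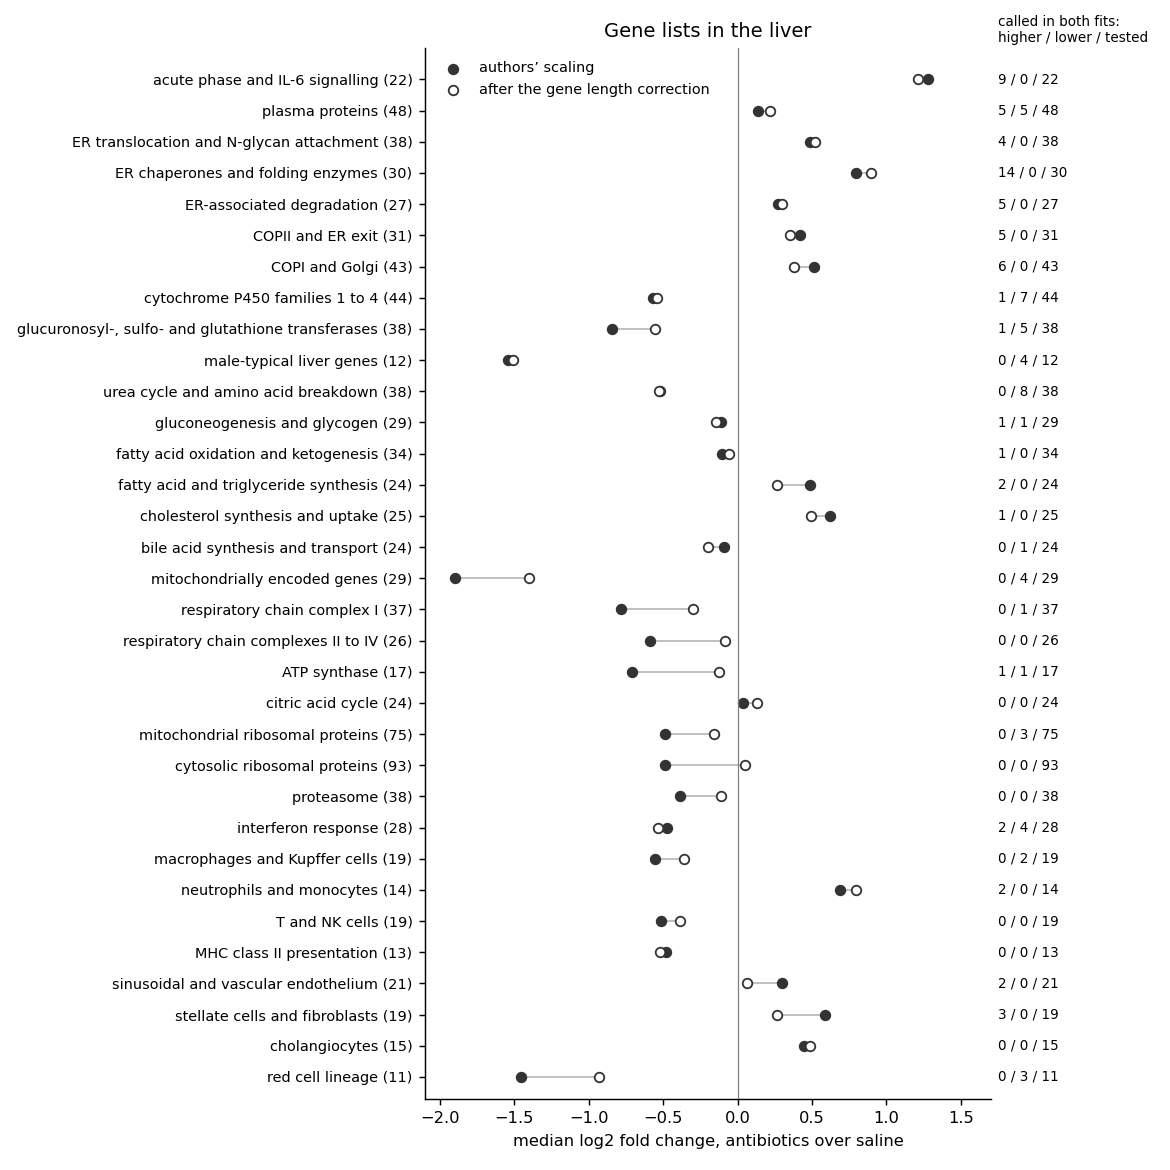
Median log2 fold change (antibiotics over saline) of 33 gene lists, with the number of genes tested in brackets, before (filled) and after (open) the length correction; numbers on the right count genes called higher and lower in both fits and genes tested. Acute phase, ER and Golgi lists stay right of 0 and mitochondrially encoded, P450 and amino acid lists left of 0, while complex I, complexes II to IV, ATP synthase and ribosomal lists move towards 0 after the correction.

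The remaining lists held between 0 and 3 called genes in each direction, where 7.93% of all genes tested rose and 4.89% fell. Of 14 periportal hepatocyte markers 3 fell (21.4%) and 0 rose (median −0.62), namely Arg1, Ass1 and Cyp2f4. Of 14 pericentral markers 2 fell (14.3%) and 0 rose (median −0.16), Cyp2e1 and the ammonium transporter gene Rhbg (log2 fold change −1.91, SE 0.36, limma adjusted p = 0.0131). Of 25 peroxisome genes 2 rose and 2 fell; catalase, Cat, which breaks down hydrogen peroxide, was at 15423, 15100.1 and 19468 in the antibiotics livers, against 51885, 31991 and 33812 in the saline livers (log2 fold change −1.21, SE 0.26, limma adjusted p = 0.0211), and the import factor gene Pex6 rose (log2 fold change 1.76, SE 0.23, limma adjusted p = 0.00528). Of 32 genes of mitochondrial import and dynamics 3 rose and 1 fell, with rises in the fusion gene Mfn2 (log2 fold change 1.95) and the fission gene Dnm1l (log2 fold change 1.14), both in both fits. Of 31 cell cycle genes 2 rose (Ccnb1 and Mcm4, Mcm4 before the correction alone) and 1 fell (Aurka), with a median of 0.89 and groups that overlapped in the list's median deviation. Of 18 circadian clock genes 1 rose, the transcription factor gene Hlf (log2 fold change 1.47, SE 0.27, limma adjusted p = 0.0129), and 0 fell. In 38 proteasome genes 1 fell, the immunoproteasome subunit gene Psmb9, and in 19 immediate early genes 2 fell, Dusp1 and Ier2; these 3 missed the threshold after the correction. Markers of cells outside the liver were few: of 6 pancreatic acinar genes 1 fell (Cela1) and of 4 adipocyte genes 1 fell (Cfd, before the correction alone). Without saline library 3 none of the genes named from these lists passed, and Pex6 came nearest (limma adjusted p = 0.0516).

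Among genes called in both fits with a mean of at least 50, groups apart and a symbol that is more than a locus or clone name, the 6 largest rises were in genes of varied function. Gucy2c, the intestinal receptor for guanylin (ENSRNOG00000009031, chromosome 4, 170659998 to 170740274), was at 169, 151 and 72 in the antibiotics livers, against 1.27, 3.06 and 2.28 in the saline livers (limma adjusted p = 0.00177). Each saline library held 3 reads or fewer of Gucy2c, so no fold is given. Scube1, a secreted surface protein, was at 298, 692 and 401 in the antibiotics livers, against 1.27, 13.3 and 11.4 in the saline livers (log2 fold change 5.89, SE 0.71, limma adjusted p = 0.0076). Niban1, a stress-response gene, was at 84.6, 106 and 99 in the antibiotics livers, against 2.55, 9.19 and 2.28 in the saline livers (log2 fold change 4.31, SE 0.49, limma adjusted p = 0.00434). The bicarbonate transporter Slc4a4, the regulatory subunit gene Prkar2a of protein kinase A and the interleukin-13 receptor gene Il13ra1 rose by 4.27, 4.12 and 4.10 on the log2 scale. For these 3 genes saline library 2 was above the other saline livers, as with Il13ra1 at 612, 767 and 889.8 in the antibiotics livers, against 16.6, 144 and 32 in the saline livers. By the same choice the 6 largest falls were Mup4, Cyp2c11, Mup5, Cyp3a23/3a1 and Mt-nd4, given above, and Tstd1, a sulfurtransferase gene at 17.9, 41.9 and 24.8 in the antibiotics livers, against 231, 132 and 251 in the saline livers (log2 fold change −2.84, SE 0.37, limma adjusted p = 0.00528). Gucy2c, Niban1 and Scube1 were called in each fit without 1 library; without saline library 3 an adjusted p of 0.0531 was left for Mup4, and the genes first described here had one of 0.063 (Slc4a4), 0.0625 (Prkar2a), 0.0863 (Il13ra1) and 0.0531 (Tstd1).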

How the data were processed

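Poly(A) RNA of 6 livers was sequenced as paired reads of 150 bases, per the labels' protocols. The submitters' processing notes list HISAT2 2.0.5, DESeq2 1.20.0 and CASAVA 1.4; the genome build, the counting tool and its use of strand are not given in the sources used here, so reads of genes that overlap, antisense ones included, cannot be told apart. The count columns deposited by the authors hold a normalized signal: multiplied by 1 size factor per library, all values (100%) are whole reads within 0.01. FPKM, log2 fold changes and adjusted p-values are also the authors' own, per the file headers. The authors' deposited table has 3079 liver genes (1703 higher, 1376 lower) at an adjusted p under 0.05, among them 1320 of the 1334 genes called in both fits here. Another 2 columns of the liver table and the jejunum table were not used.

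The planned test was limma 3.58.1 (R 4.3.3; trend and robust) on log2(normalized count + 1), in genes averaging at least 1, with Benjamini-Hochberg adjustment at 0.05. For the length correction, deviations from the gene means were regressed on log2 gene length in every library by lowess (span 0.3, using genes whose mean was 50 or more), and the curve was subtracted. Alternatives were other filters, pseudocounts of 0.1 and 5, library totals, TMM, edgeR 4.0.16, DESeq2 1.42.0, limma-voom, other trends, a replicate block, the spread without robust weights and each library left out. For values of 0 the floor is 3 reads in a library, for counting error alone. The fits were checked on simulated data, in which libraries of a group shared the same length trend or had none. That check does not cover an outlying library. In the deposited data, libraries of a group differed by more than counting noise.

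The comparison, its gene lists and its tests were chosen with earlier results of these data known. Genes named are, per list, up to 3 called in each direction with the smallest p and up to 3 called in both fits, the 6 largest rises and falls called in both fits with a mean of at least 50, and a set of marker genes given whether they passed or not (Rps14, of that set, was not analysed here). Some genes that this rule names are not reported here. Genes of a list named besides these were chosen after their values were seen. Figures used matplotlib 3.10.9, and tables pandas 2.3.3.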

Additional observations from a re-analysis of the deposited data

How the results depend on the processing

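The number of genes called was 2121 with all libraries and ran from 39 to 4406 with 1 library left out, with or without the length correction (28 to 2513 higher, 11 to 1893 lower). Genes called in both fits ran from 26 to 2029 higher and 9 to 1119 lower. Saline libraries 3 and 2 gave the lowest and highest numbers. Each such fit compares groups of 3 and 2, and without saline library 3 the called genes kept their direction and an unadjusted p under 0.05. That is not an independent test, because these genes were selected with the same libraries. Genes called lower numbered 1376 with DESeq2, 414 with library totals, 507 with the length correction and 501 with its span at 0.6. Library totals raised the median of all genes to 0.14. Of the named genes with a call, 37 lost it with the length correction, 30 with library totals, 5 with edgeR and 3 with TMM. Those that lost it numbered 85, 87 and 98 without antibiotics library 1, 2 and 3. Without saline library 1, 2 and 3 they numbered 59, 1 and 129. Deviations of same-numbered libraries had correlations of 0.05, −0.05 and −0.08, which show no pairing by replicate number but cannot exclude it. With the number as a replicate block, 1779 genes were called, and with the block and the length correction 1301, of which 392 were lower. The median of a list minus that of all genes moved with the length correction by more than the SD between libraries for 18 of 48 lists and changed sign for 5 of these 48 (mitochondrial import, cytosolic ribosomal proteins, circadian clock, pericentral hepatocytes and B cells). Of the lists behind the main comparisons 8 moved, to −0.59 for transferases, 0.35 for COPI and Golgi genes, −0.33 for complex I, −0.12 for complexes II to IV, −0.16 for ATP synthase, 0.016 for cytosolic ribosomal proteins, 0.027 for endothelial markers and 0.23 for stellate cell markers. The replicate block with the correction gave the same medians. With a span of 0.6 it was 0.34 for COPI and Golgi genes, −0.33 for complex I, −0.11 for complexes II to IV, −0.15 for ATP synthase, 0.0060 for cytosolic ribosomal proteins, 0.021 for endothelial markers and 0.24 for stellate cell markers. With the trend fitted in all genes it was 0.38 for COPI and Golgi genes, −0.24 for complexes II to IV, −0.33 for ATP synthase, −0.10 for cytosolic ribosomal proteins, 0.074 for endothelial markers and 0.29 for stellate cell markers. With 1 library left out, with or without the correction, these differences ran from −0.052 to 0.39 for plasma proteins, from −0.68 to −0.43 for urea cycle and amino acid breakdown, from −0.68 to −0.49 for cytochrome P450 families 1 to 4, from −1.03 to −0.43 for glucuronosyl-, sulfo- and glutathione transferases, from 0.24 to 0.49 for COPII and ER exit, from 0.25 to 0.60 for COPI and Golgi, from −1.06 to −0.27 for respiratory chain complex I, from −0.69 to −0.020 for respiratory chain complexes II to IV, from −0.99 to −0.10 for ATP synthase, from −0.64 to 0.13 for cytosolic ribosomal proteins, from −0.75 to −0.20 for macrophages and Kupffer cells, from −0.046 to 0.38 for sinusoidal and vascular endothelium, from 0.21 to 0.60 for stellate cells and fibroblasts. Over all 48 lists the sign changed for 11 in at least 1 of the 6 fits without 1 library, among them plasma proteins, gluconeogenesis, fatty acid oxidation, bile acids and pericentral hepatocytes, and for 19 with the corrected fits counted too. No called result was reversed in the settings run. The cause of these moves was not tested.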
